A study of Mus musculus with 2 samples.

Results

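The mitochondrial ribosomal protein genes were examined in the livers of wild-type mice (WT) and of mice labelled GBP5-/- (KO). The genes were all protein-coding entries of the GENCODE M21 annotation of GRCm38 whose symbol begins with Mrpl or Mrps and a digit. There were 78 of them among 52636 Ensembl genes in the count tables, 49 named for the large subunit (Mrpl) and 29 for the small subunit (Mrps). All mice were C57BL/6, 9 weeks old, and received D-galactosamine (GalN) at 800 µg and lipopolysaccharide (LPS) at 100 ng per g body weight for 6 h. The genotypes are labelled wild type and GBP5-/-, and the labels do not say how the allele was made. RNA from 4 livers was pooled per genotype and sequenced as 1 library, so nothing measures the spread between animals, no test across replicates exists, and no difference below has a p-value. No untreated library was analysed here.

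Mitochondria carry their own ribosomes, which translate the mRNAs of the mitochondrial genome into membrane subunits of the respiratory chain. Both ribosomal RNAs come from the mitochondrial genome, whereas every ribosomal protein is encoded in the nucleus, translated in the cytosol and imported. Many of these proteins have bacterial counterparts, and others are found only in mitochondria. The small subunit binds and decodes the mRNA, and the large subunit joins amino acids and feeds the chain to the inner membrane. In hepatocytes, cells rich in mitochondria, this machinery supplies the respiratory chain.

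The words bound by NRF1, a regulator of nuclear genes for mitochondria, by ETS-family factors and by YY1 were searched in the 250 bases before the transcription start, on both strands (ETS CCGGAAG, YY1 AAGATGGC and the NRF1 palindrome, which stands in capitals in Mrpl9 below; none of them contains another). RefSeq promoters of GRCm38.p6 matched 69 of the 78 genes, with 75 promoters in all. The ETS word was in 24% of these promoters and in 6.91% of all 32851 promoters of the table, or 8.98% of the 21263 promoters of protein-coding genes. The NRF1 word was in 4% (3 promoters) against 0.782% of all and 1.07% of protein-coding ones, and the YY1 word in 5.33% (4 promoters) against 1.56% and 1.496%. The median GC content of the windows was 58.4% for the ribosomal genes, 52.4% for all and 55.6% for protein-coding genes, and a match of letters does not show a bound site. Promoters of 4 genes are shown, which hold such a word, in capitals, and lie almost wholly outside annotated exons. They are Mrpl22 at chr11:58171414-58171663 (plus strand), Mrpl34 at chr8:71464676-71464925 (plus strand), Mrps18a at chr17:46110754-46111003 (plus strand) and Mrpl9 at chr3:94443086-94443335 (plus strand). Of the genes with a word, Mrpl22 was picked for the highest ratio of KO to WT in the large subunit and Mrpl34 for its reads per exon length. Mrps18a was picked for its role and Mrpl9 for the NRF1 word.
Mrpl22: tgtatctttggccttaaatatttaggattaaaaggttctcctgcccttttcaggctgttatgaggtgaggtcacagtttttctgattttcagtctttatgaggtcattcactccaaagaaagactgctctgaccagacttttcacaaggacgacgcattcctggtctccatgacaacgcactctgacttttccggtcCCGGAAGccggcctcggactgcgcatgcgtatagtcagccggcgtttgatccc
Mrpl34: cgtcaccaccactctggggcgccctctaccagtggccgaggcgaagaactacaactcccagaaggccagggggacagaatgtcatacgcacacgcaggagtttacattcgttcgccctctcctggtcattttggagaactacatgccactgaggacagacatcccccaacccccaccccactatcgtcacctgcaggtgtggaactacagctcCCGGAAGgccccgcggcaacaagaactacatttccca
Mrps18a: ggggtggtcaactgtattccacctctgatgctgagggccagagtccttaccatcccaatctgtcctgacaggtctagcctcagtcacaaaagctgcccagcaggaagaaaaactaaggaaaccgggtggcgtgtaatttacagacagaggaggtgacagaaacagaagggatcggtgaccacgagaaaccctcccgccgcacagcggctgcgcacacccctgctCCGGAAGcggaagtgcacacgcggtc
Mrpl9: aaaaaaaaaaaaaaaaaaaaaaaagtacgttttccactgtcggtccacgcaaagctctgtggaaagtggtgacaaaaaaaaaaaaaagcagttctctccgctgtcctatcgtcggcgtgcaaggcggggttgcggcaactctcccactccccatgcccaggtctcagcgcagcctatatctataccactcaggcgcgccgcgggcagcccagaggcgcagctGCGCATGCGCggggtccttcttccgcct
The ETS word begins 53 bases before the start in Mrpl22, 37 in Mrpl34 and 26 in Mrps18a, and the NRF1 word 28 bases before it in Mrpl9. The log2 difference of KO from WT (defined below) was 0.79 for Mrpl22, 0.06 for Mrpl34, 0.08 for Mrps18a and 0.14 for Mrpl9. The 17 measured genes with the ETS word in a promoter had a median log2 difference of 0.13, and the 51 without it 0.26. For NRF1 the order was the other way, with 0.39 for the 3 genes that hold the word, of which Mrpl9 is the lowest, and 0.20 for the 65 without. For YY1 the medians were 0.11 for 4 genes and 0.21 for 64.

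Reads over annotated genes totalled 19864848 for WT and 15750875 for KO. Levels are given as CPM, read counts scaled to an equal library total, and differences as the log2 of KO CPM over WT CPM. Intervals of ratios are exact 95% Clopper-Pearson intervals that cover counting error only, not the spread between animals. They treat reads as independent, and are too narrow where reads of 1 library are not independent molecules. A gene counted as measured at a mean of 1 CPM or more over both libraries, which 13453 genes reached. Gbp5 itself had 3211 and 873 reads (WT first, here and below), or 162 and 55.4 CPM, and was 2.92-fold lower in KO (2.71 to 3.15). Reads of the gene were thus still counted in KO, and these counts alone do not establish the loss that the label names. Of 8 hepatocyte markers 7 were above 0, with summed levels of 61665 CPM in WT and 98204 in KO. All 7 macrophage markers were below 0 (summed 979.6 and 400.0 CPM), and 4 of 5 leukocyte markers were (198 and 182 CPM). Of 5 ductal markers 4 were above 0 (142 and 203 CPM). Of 4 endothelial markers 1 was above 0 and 3 were below (229 and 217 CPM). Of 4 stellate and fibroblast markers 2 were above 0 and 2 below. Their median log2 difference was -0.20, although their sum was higher in KO (518 and 561 CPM). Among 5 exocrine pancreas markers (26.3 and 39.7 CPM in sum), Ctrb1 had 0 and 297 reads, Cela1 521 and 328, Prss2 1 and 0, and Cpa1 and Pnlip none. In bulk RNA fewer cells of a type and less RNA per cell cannot be told apart, and the part of these shifts in the values below was not tested.

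Mitochondrial ribosomal protein genes were slightly higher in KO as a group, and the size was similar in both subunits. Of the 78 genes 77 were measured, and 58 of those were above 0 and 19 below, where 45.5% of all genes measured were above 0 and 54.5% below. The median log2 difference was 0.22, a ratio of 1.16, against -0.07 over all genes measured. Single genes lay between -0.53 and 0.79. By a rule of size, 7 genes were at least 1.5-fold higher and 0 at least 1.5-fold lower. Over all genes measured, 10.9% were at least 1.5-fold higher and 24.3% at least 1.5-fold lower. None reached 2-fold, which 3.28% of all genes measured did upward and 11.8% downward. The counting interval lay above a ratio of 1 for 41 genes and below it for 6, against 26.5% and 37.2% of all genes measured. Among protein-coding genes measured the shares were close to these, with 45.2% above 0 and 54.8% below, 10.3% and 24.6% at 1.5-fold, 2.8% and 12.1% at 2-fold, and 27.2% and 38.3% by interval, upward first. Reads per gene ran from 22 to 2313 in WT, with a median of 430, and from 23 to 1610 in KO, with a median of 398. The most precise ratios are thus those of genes such as Mrpl38, and the least precise is that of Mrps23, a small subunit gene with 22 and 23 reads (ratio 1.32, interval 0.702 to 2.48).

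**Figure D1:**
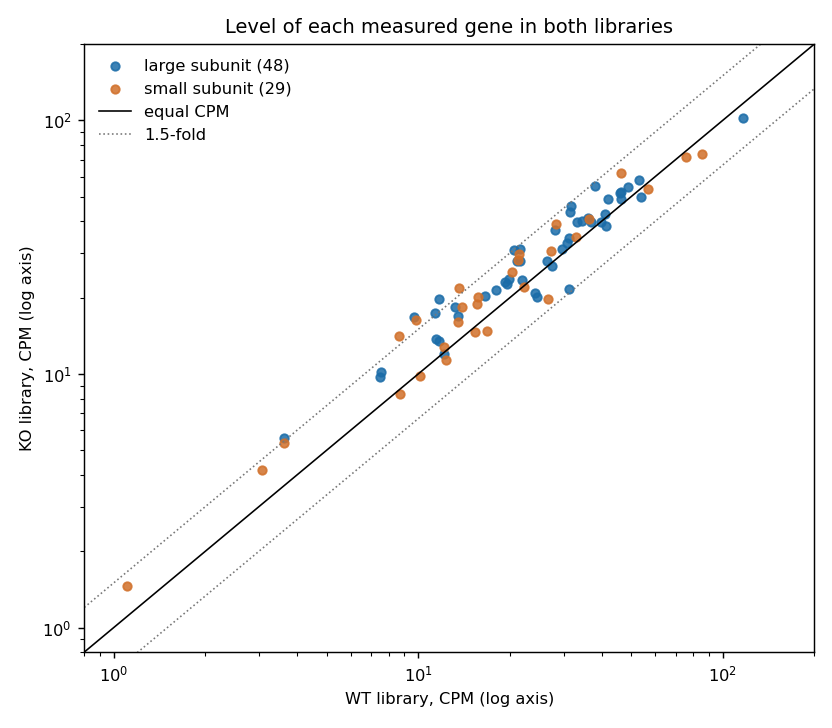
Each point is 1 of the 77 measured genes, with its CPM in the WT library on the x axis and in the KO library on the y axis, both logarithmic; blue marks the large and orange the small subunit. Most points sit above the line of equal CPM, 7 lie on or beyond the upper dotted line (1.5-fold) and none on the lower.

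The large subunit had 48 measured genes, 39 above 0 and 9 below, with a median of 0.21. The small subunit had 29, of which 19 were above 0 and 10 below, with a median of 0.25. Summed over the genes, the large subunit came to 1385 and 1551 CPM, with a ratio of 1.12 (interval 1.10 to 1.14). The small subunit came to 674.9 and 740.0 CPM, with a ratio of 1.10 (1.07 to 1.12), so the intervals of the subunits overlap. The medians differed by -0.04, large minus small, while single genes of either subunit spread with an SD of 0.27 and 0.30. Per exon length, the median gene of the large subunit stood at 10.3 FPKM in WT and 13.2 in KO, and that of the small subunit at 5.68 and 6.78 FPKM (CPM divided by the annotated exon length). The order of genes by level was nearly the same in both libraries, with Spearman's rho of 0.95 over the 77 genes, which share their length and sequence between libraries.

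**Figure D2:**
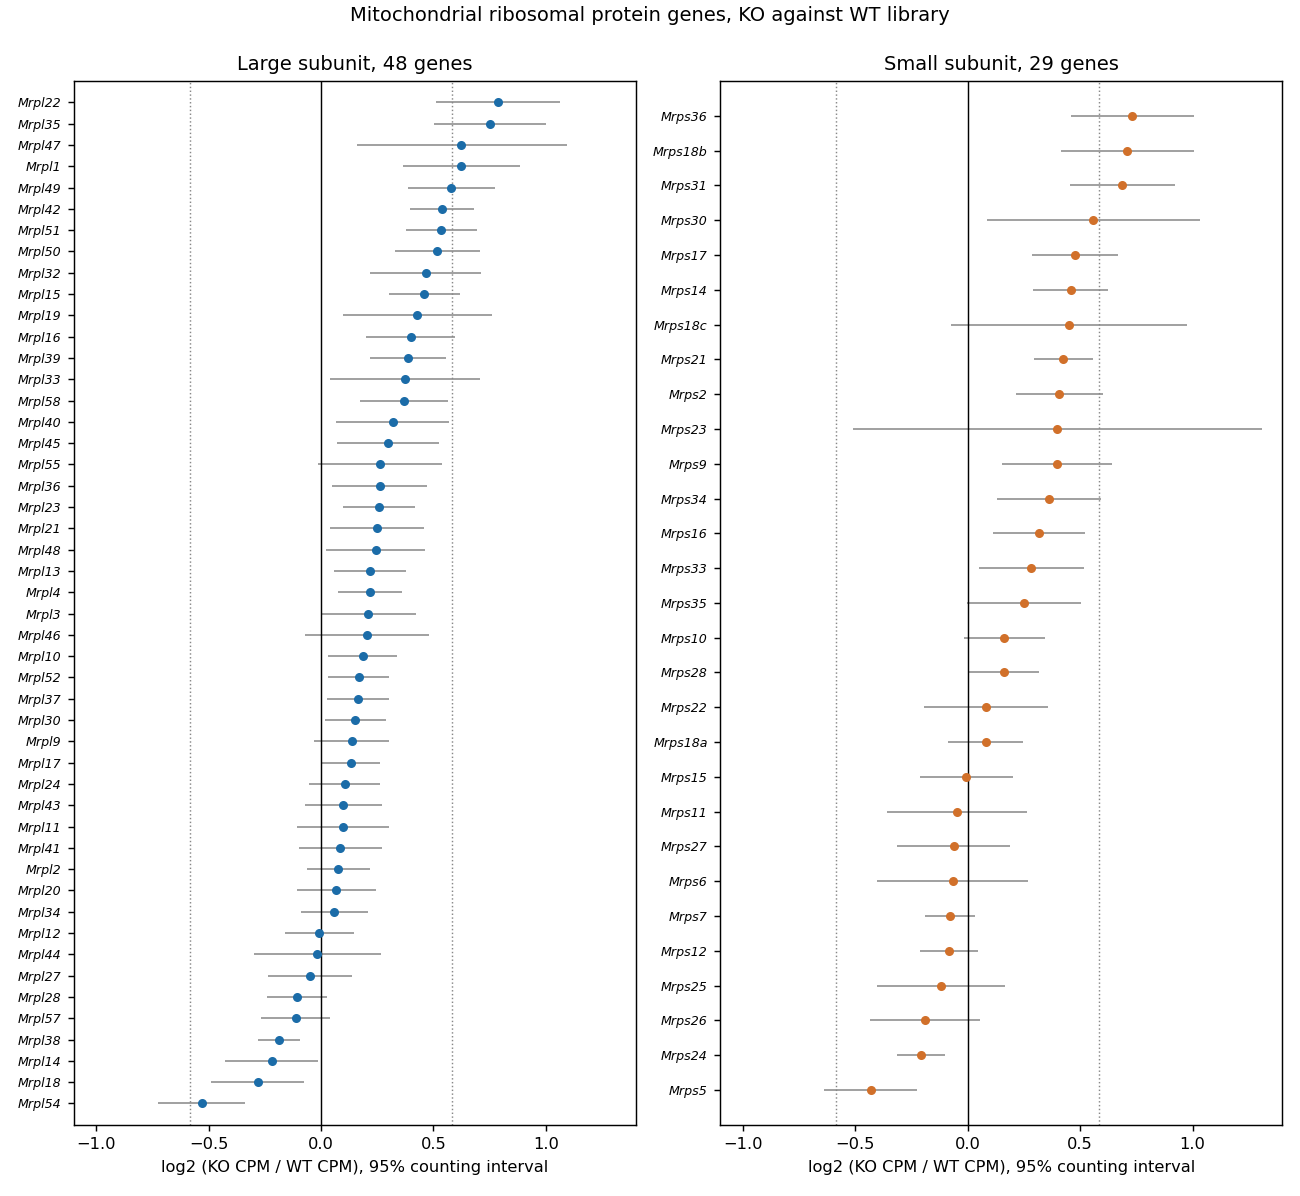
Points give the log2 ratio of KO to WT CPM of each gene, large subunit on the left and small subunit on the right, with 95% counting intervals; dotted lines mark 1.5-fold in either direction. Values run from -0.53 for Mrpl54 to 0.79 for Mrpl22, and only genes at the upper end pass a dotted line.

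In the large subunit, Mrpl22 (ENSMUSG00000020514, chromosome 11, 58171661 to 58179565, plus strand) had the highest ratio. It encodes a protein of the tunnel through which the new chain leaves the ribosome, and had 193 and 264 reads, or 9.72 and 16.8 CPM. A processed pseudogene that matches 100% of the Mrpl22 coding sequence at 97.1% identity was not among the genes counted, so the count of Mrpl22 is uncertain. The KO library was 1.73 times the WT level (interval 1.43 to 2.09). Mrpl35 (233 and 311 reads, 11.7 and 19.7 CPM) followed with a ratio of 1.68 (1.42 to 2.004). Mrpl1, a protein of the mobile stalk at the exit of spent tRNA, had 225 and 275 reads, or 11.3 and 17.5 CPM, and a ratio of 1.54 (1.29 to 1.85). Mrpl47, which sits near the tunnel exit, had only 72 and 88 reads and a ratio of 1.54 (1.12 to 2.13). Its exons overlap those of Ndufb5 and Actl6a, and annotated copies of its coding sequence numbered 2 and held 4 and 0 reads. Mrpl49, a protein without a bacterial counterpart, had 410 and 486 reads and a ratio of 1.49 (1.31 to 1.71). The intervals of these 5 genes overlap one another, so their order is not resolved.

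At the other end of the large subunit, Mrpl54 (ENSMUSG00000034932, chromosome 10, 81264713 to 81266934, minus strand) was the lowest. Its counts were 623 and 342 reads, or 31.4 and 21.7 CPM, and was 1.44-fold lower (interval 1.26 to 1.65). Mrpl18, a protein of the central protuberance, had 486 and 317 reads (24.5 and 20.1 CPM) and was 1.22-fold lower (1.05 to 1.405). Mrpl14, which lies at the face that meets the small subunit, had 480 and 327 reads and was 1.16-fold lower (1.01 to 1.34). Mrpl38 had the most reads of the whole group, 2313 and 1610 (116 and 102 CPM), and was 1.14-fold lower (1.07 to 1.21). Set against genes of like GC content, described below, Mrpl54, Mrpl14 and Mrpl38 turned direction. Mrpl57 had 821 and 602 reads, with a ratio of 0.925 whose interval spans 1 (0.831 to 1.03). The interval of Mrpl54 lies below those of Mrpl38 and Mrpl57 and overlaps those of Mrpl18 and Mrpl14.

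Several large subunit proteins have a known place or further role. Mrpl12, part of the stalk that recruits translation factors and a reported partner of the mitochondrial RNA polymerase, had 790 and 623 reads, or 39.8 and 39.6 CPM, a ratio of 0.995 (0.894 to 1.11). Mrpl11, at the base of that stalk, had 21.9 and 23.5 CPM and a ratio of 1.07 (0.929 to 1.23). Mrpl58, a hydrolase that frees stalled chains and is also a ribosomal protein, had 21.5 and 27.8 CPM and a ratio of 1.29 (1.13 to 1.48). Per length of all annotated exons Mrpl34 was the most abundant gene of this subunit, at 67.4 FPKM in WT and 70.3 in KO, with Mrpl52 at 41.9 and 47.0 FPKM. This order depends on the length used. Over the coding transcript alone Mrpl52 stood at 111 and 125 FPKM and Mrpl38 at 82.5 and 72.4, both above Mrpl34 at 67.4 and 70.3. The CPM ratios of Mrpl34 and Mrpl52 were 1.04 (0.940 to 1.16) and 1.12 (1.02 to 1.24). Mrpl53 had 0 reads in both libraries, which allows up to 3 reads, or 0.151 CPM in WT and 0.190 in KO. Of its 790 annotated exon bases 695 overlap another annotated gene.

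In the small subunit, Mrps36 (ENSMUSG00000061474, chromosome 13, 100735955 to 100744659, minus strand) had the highest ratio. Despite its name, its product is a subunit of the 2-oxoglutarate dehydrogenase complex. Its counts were 196 and 258 reads, or 9.87 and 16.4 CPM, with a ratio of 1.66 (1.37 to 2.01). Annotated copies of its coding sequence numbered 8 and held 13 and 10 reads together. Mrps31 had 270 and 345 reads and a ratio of 1.61 (1.37 to 1.90), and Mrps17 had 425 and 469 reads and a ratio of 1.39 (1.22 to 1.59). Mrps30, whose product lies in the large subunit of the assembled ribosome, had 72 and 84 reads and a ratio of 1.47 (1.06 to 2.04).

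The bacterial protein S18 has 3 paralogues here, which take different places in the ribosome. Mrps18b had 172 and 223 reads, or 8.66 and 14.2 CPM, a ratio of 1.64 (1.33 to 2.01). Mrps18c, with 61 and 66 reads, had a ratio of 1.36 whose interval spans 1 (0.949 to 1.97). Mrps18a, which is built into the large subunit, had 654 and 548 reads, or 32.9 and 34.8 CPM, a ratio of 1.06 (0.942 to 1.19). The interval of Mrps18b lies above that of Mrps18a, and that of Mrps18c overlaps both. A processed pseudogene that matches 54.5% of the Mrps18b coding sequence at 99.8% identity held 71 and 97 reads, so the count of Mrps18b is uncertain.

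The lowest ratio of the small subunit was that of Mrps5 (ENSMUSG00000027374, chromosome 2, 127587222 to 127606829, plus strand). Its counts were 529 and 311 reads, or 26.6 and 19.7 CPM, and was 1.35-fold lower (1.17 to 1.56). Mrps24, at the entry of the mRNA channel, had 1694 and 1163 reads (85.3 and 73.8 CPM) and was 1.15-fold lower (1.07 to 1.25), a direction that turned within bins of GC content. Mrps26 with 335 and 233 reads, Mrps25 with 245 and 179 and Mrps12, a protein of the decoding centre with 1132 and 848, had ratios of 0.877, 0.921 and 0.945, all with intervals that span 1. Mrps7, which helps to assemble the head of the subunit, had 75.6 and 71.6 CPM and a ratio of 0.947 (0.876 to 1.02). By the mean of both libraries, Mrps21 and Mrps24 were the most abundant of this subunit per exon length. Mrps21 stood at 62.7 FPKM in WT and 84.2 in KO (CPM ratio 1.34, 1.23 to 1.47), and Mrps24 at 58.2 and 50.4 FPKM. In KO alone Mrps28, at 52.1 FPKM, and Mrps12, at 51.8, stood above Mrps24. Over the coding transcript alone that order turned, with Mrps24 at 74.2, Mrps12 at 61.0 and Mrps28 at 52.1 FPKM in KO. Of 6576 annotated exon bases of Mrps25, 4590 overlap another gene, so its count is uncertain as well.

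Genes with a bacterial counterpart and genes without lay close together. The 47 genes with one had a median of 0.18, and 35 of them were above 0. The 30 measured genes without one had a median of 0.26, with 23 above 0. Their summed levels gave ratios of 1.10 (interval 1.08 to 1.12) and 1.13 (1.10 to 1.16). Exons of 33 genes overlap another annotated gene and 24 genes have a copy elsewhere in the annotation, while 31 have neither. Whether counting used strand is unknown, so reads from overlapping genes cannot be told apart. The 45 measured genes without an overlap had a median of 0.26 and the 32 with one 0.19. The 53 without a copy had a median of 0.17 and the 24 with one 0.29, and leaving out the genes with a copy left 3 at least 1.5-fold higher.

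The difference between the libraries went with the GC content of the genes, and the ribosomal protein genes shared this trend. Over all genes measured that have a GC value (13446), the log2 difference and the GC content of annotated exons had a Spearman's rho of -0.46, and it was -0.52 over the 77 ribosomal genes. These are correlations across genes measured in the same pair of libraries, not across replicates. The 18 ribosomal genes under 45% GC had a median log2 difference of 0.46, with 17 above 0. The 33 at 45% to 52% GC had 0.25, with 26 above 0, and the 26 at 52% or more had 0.07, with 15 above 0 and 11 below. Of the 19 genes below 0, 15 had a GC content of 50% or more, and the others were Mrpl57, Mrps25, Mrps26 and Mrps5. The first 180 bases of the coding sequence of Mrpl54 and Mrpl1, chosen after their values were seen, show the contrast, with G and C in capitals. They are read on the minus strand of chromosome 10 for Mrpl54 and on the plus strand of chromosome 5 for Mrpl1 (GENCODE M21 transcripts, GRCm38).
Mrpl54: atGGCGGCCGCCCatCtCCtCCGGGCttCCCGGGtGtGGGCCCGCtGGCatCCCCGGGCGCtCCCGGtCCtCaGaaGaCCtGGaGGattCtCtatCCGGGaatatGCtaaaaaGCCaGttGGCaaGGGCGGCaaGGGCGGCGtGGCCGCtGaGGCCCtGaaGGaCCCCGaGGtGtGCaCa
Mrpl1: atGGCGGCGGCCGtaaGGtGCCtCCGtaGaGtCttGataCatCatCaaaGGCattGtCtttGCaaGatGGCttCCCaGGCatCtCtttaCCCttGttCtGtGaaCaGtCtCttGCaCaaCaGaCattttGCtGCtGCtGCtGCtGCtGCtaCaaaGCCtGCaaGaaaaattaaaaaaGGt
G and C make up 67.2% of the first stretch and 47.2% of the second. Over all annotated exons the GC content was 59.0% for Mrpl54, the lowest gene of the large subunit, and 41.0% for Mrpl1, which was 1.54 times the WT level. Single genes did not all follow the trend. Mrpl22, with the highest ratio, had 51.0% GC, above the group median of 49.6%, and Mrps34, at 59.3% GC, had a log2 difference of 0.36.

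**Figure D3:**
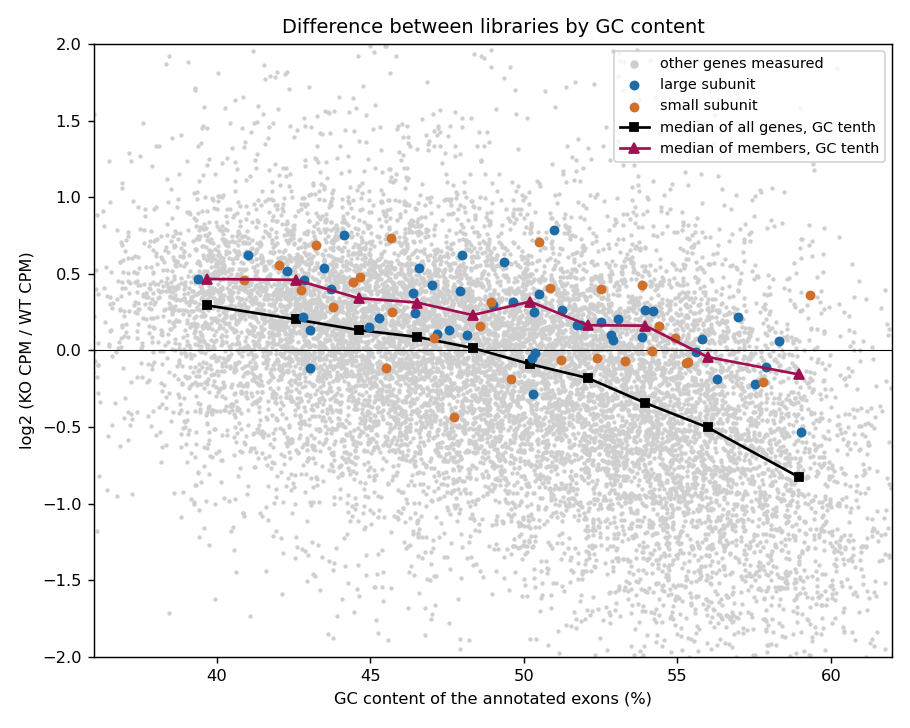
The log2 ratio of KO to WT CPM is plotted against the GC content of the annotated exons, in grey for other genes measured and in colour for the ribosomal protein genes; the y axis is limited to -2 to 2 and the x axis to 36% to 62%. Black squares and purple triangles join the medians of all genes and of the ribosomal genes in 10 equal GC bins, and the triangles lie above the squares in every bin, from 0.47 against 0.29 in the lowest bin to -0.16 against -0.83 in the highest.

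Set against genes of like GC content, the ribosomal protein genes lay higher too. Before any subtraction their median was 0.22, against -0.07 for all genes measured. In 10 equal bins of GC content, 70 of the 77 genes were above the median of all genes in their bin, where 49.9% of all genes and 49.5% of protein-coding genes are. The median distance from the bin median was 0.34 log2 units in both the large and the small subunit. The gap was smallest in the lowest bin and largest in the highest. Over the 77 genes the distance from the bin median rose with GC content, with a Spearman's rho of 0.51, against 8.9e-05 over all genes measured. The subtraction thus did not remove the link to GC content within this group but turned its sign, from a rho of -0.52 before. Between 41.3% and 43.7% GC, 9 ribosomal genes had a median of 0.46 against 0.20 for all genes, whereas above 57.2% GC, 6 had -0.16 against -0.83. In that highest bin all 6 were above the bin median, among them Mrpl54 at 0.30 and Mrps24 at 0.62 log2 units above it. Of the 6 genes whose counting interval lay below a ratio of 1, 4 thus turned direction, these along with Mrpl14 at 0.61 and Mrpl38 at 0.31, while Mrpl18 at -0.19 and Mrps5 at -0.45 did not. Mrps34, with 311 and 317 reads, lay farthest above, by 1.19, but 1309 of its 2064 annotated exon bases overlap another gene. The 7 genes under their bin median were Mrpl17, Mrpl18, Mrpl57, Mrps5, Mrps22, Mrps25 and Mrps26, with Mrps5 farthest below at -0.45. After this subtraction 15 genes were at least 1.5-fold higher and 0 at least 1.5-fold lower, against 12.9% and 17.4% of all genes measured and 12.2% and 17.4% of protein-coding genes. Bins of GC content split further by exon length gave a smaller median of 0.22, with 61 of 77 genes above 0, 7 at least 1.5-fold higher and 0 lower. No share of all genes at 1.5-fold is given for these bins, so the 7 cannot be set against a background. In these bins Mrpl54 was at -0.03, Mrps24 at 0.30, Mrpl14 at 0.28 and Mrpl38 at 0.08. With GC content of the coding transcript in place of all exons, Mrps24 was at 0.12 and Mrpl54 at 0.39. Subtracting a bin median also removes any difference between the genotypes that goes with GC content.

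Proteins of the same ribosome that carry other symbols did not all lie on the same side. Ptcd3, which binds RNA in the small subunit, had 415 and 451 reads and a ratio of 1.37 (1.20 to 1.57). Chchd1 and Aurkaip1 had log2 differences of 0.34 and 0.09. Dap3, a GTP-binding protein of the small subunit, had 699 and 487 reads and was 1.14-fold lower (1.01 to 1.28). Gadd45gip1, a large subunit protein near the tunnel exit, had 562 and 278 reads, or 28.3 and 17.6 CPM, and was 1.60-fold lower (1.39 to 1.86). It was thus below every gene with an Mrpl or Mrps symbol in point estimate, and its interval overlaps those of Mrpl54, Mrps5, Mrpl18 and Mrps23. Within GC bins 0 of these 5 genes were at least 1.5-fold lower.

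Factors that assemble the mitochondrial ribosome or work with it were more spread out. Of 39 such genes 35 were measured, 19 above 0 and 16 below, with a median of 0.15. The rule of 1.5-fold was passed upward by 8 and downward by 3, against 10.9% and 24.3% of all genes measured. Tfb1m, a methyltransferase of the small ribosomal RNA, had 32 and 54 reads and a ratio of 2.13 (1.35 to 3.41), and the release factor gene Mtrf1 had 48 and 75 reads and a ratio of 1.97 (1.35 to 2.89). Mtrf1l, another release factor gene, had 58 and 22 reads and was 2.09-fold lower (1.26 to 3.59), and the GTPase gene Noa1, with 235 and 99 reads, was 1.88-fold lower (1.48 to 2.41). The small and large ribosomal RNAs of the mitochondrion, mt-Rnr1 and mt-Rnr2, had log2 differences of 0.39 and 0.34.

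The 13 mitochondrial mRNAs, the templates of this ribosome, lay in separate ranges. The log2 differences of 7 were above 0, up to 0.70 for mt-Nd1 (3457 and 5626 CPM) and 0.65 for mt-Nd2. The other 6 were below -0.6, the lowest being mt-Co3 with 19889 and 1469 reads, at -3.42, and mt-Atp6 at -3.06. Their summed level was 58320 CPM in WT and 70272 in KO. Copies of these 13 genes elsewhere in the genome were not searched for, so the single values and the sum are uncertain.

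Nuclear-encoded respiratory chain subunits and cytosolic ribosomal proteins were set beside the group as the sets most like it. Of 78 measured respiratory chain genes, 69 were above 0, with a median of 0.35, and 7 were at least 1.5-fold higher and 0 lower. Over all genes measured the shares at 1.5-fold were 10.9% and 24.3%. The lowest of the respiratory chain set were Cyc1, encoding cytochrome c1, at -0.48 and Uqcrc1 at -0.22. The highest were Atp5s at 0.74 and Cox7a1 at 1.48, the last on 33 and 73 reads. Genes entered this set by the start of their symbol alone, Atp5s among them, and the place of each product was not checked. Of 85 cytosolic ribosomal protein genes 60 were above 0, with a median of 0.14, from Rps27a at -0.80 and Rpl12 at -0.49 to Rps27rt at 0.69 and Rpl10-ps3 at 0.71. Many cytosolic members have near-identical pseudogenes, so single values are uncertain. Within GC bins the medians were 0.41 for the respiratory chain and 0.24 for the cytosolic ribosome. The value of 0.34 for the mitochondrial ribosome lies between them, and with 1 library per genotype the differences among these sets could not be tested. Hepatocyte markers, given above, had a median of 0.40 and a median of 0.48 within GC bins.

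**Figure D4:**
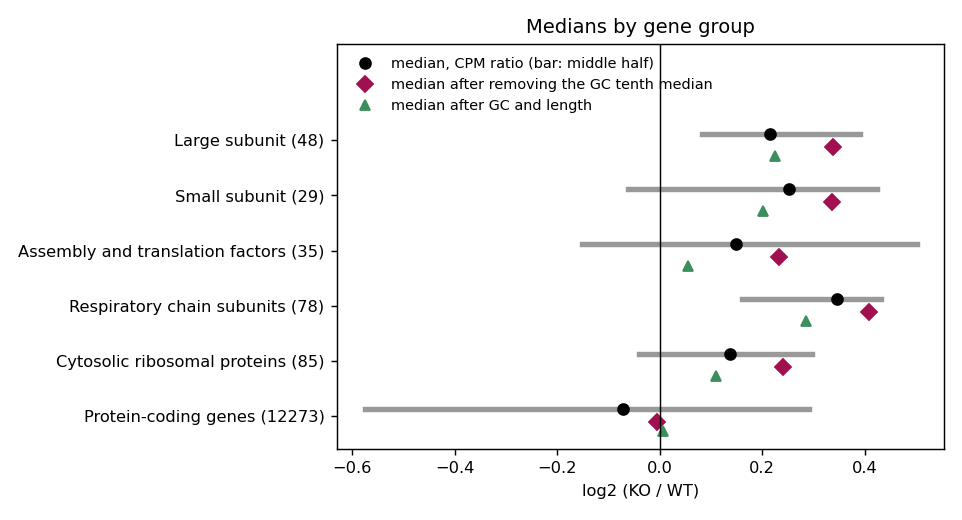
For each gene group, with its number of measured genes in brackets, the black point is the median log2 ratio of KO to WT CPM, the grey bar spans the middle 50% of its genes, the purple diamond is the median after subtraction of the GC bin median and the green triangle the median after subtraction by GC and length. Both subunits lie at 0.21 and 0.25 before and at 0.34 after subtraction by GC content, and at 0.22 and 0.20 with length included.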

How the data were processed

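Total liver RNA was sequenced as 1 pooled library per genotype. TopHat2, HTSeq 0.6.1 and the build GRCm38 are named, without their settings, per the submitters' processing notes. Which annotation release and strand setting they chose is not stated there. The deposited files are named for FPKM but hold raw read counts per gene, whole numbers with 2707 genes at exactly 1 read in WT. Of 52845 rows, 209 name no annotated gene (0.652% of counts in WT, 0.496% in KO) and were left out of totals. CPM, FPKM over the union of GENCODE M21 exons, and GC content of that union were computed here. A gene with 0 reads in 1 library was set to a floor of 3 reads. GC bins held equal numbers of measured genes. Copies were blastn 2.17.0 matches at 90% identity over 50% of the coding sequence. Python 3.11.15 was used, and edgeR 4.0.16 for scaling factors alone. The bins and intervals were tested on simulated data. Alternatives covered scaling, filters, pseudocounts, GC content, length, membership and subunit.

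The genes and lists were chosen with earlier results of these data known. Genes were named by rule: the 5 highest and 5 lowest and the 2 most abundant per length in each subunit, genes with a known place or role, ribosomal proteins with other symbols, and the 2 highest and 2 lowest of each related list. Mrpl1 and Mrpl54 as a pair of sequences, Mrpl9, Mrpl17, Mrps22, Mrps23, Mrps28 and Mrps34 were named after their values were seen. Trmt61b of the list of factors is not a protein-coding entry in this annotation and was not used.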

Additional observations from a re-analysis of the deposited data

How the results depend on the processing

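Of 124 group values under an alternative, 112 stayed within a tolerance. For medians and their difference it was 0.197 log2 units, a typical counting spread of a single gene, and for a count 1.5 times. For sums it was the counting interval. The tolerance is wide for a median over many genes, so passing it says little about stability. The median of the small subunit fell from 0.25 to 0.08 without genes that have a copy and still passed. No median changed sign. Over all settings the median lay between 0.17 and 0.34 for all genes. It lay between 0.19 and 0.34 for the large and 0.08 and 0.36 for the small subunit. The other 12 follow. The number at least 1.5-fold higher was 7, and became 15 within GC bins, 17 with bins over protein-coding genes, 14 with GC content of the coding transcript, 12 with totals without the 50 most abundant genes and 3 without genes that have a copy. Shares over all genes are given above for the main setting and the GC bins only. The number at least 1.5-fold lower was 0, and 1 once ribosomal proteins with other symbols were added, namely Gadd45gip1. The summed ratio of the large subunit was 1.14 with TMM factors, 1.20 without the 50 most abundant genes and 1.10 without genes that have a copy. That of the small subunit was 1.18 without the 50 most abundant genes, 1.17 without genes with an exon overlap and 1.05 without genes that have a copy. The totals without the 50 most abundant genes moved the median of all genes from -0.07 to 0.04, and 67 of 77 genes were then above 0. GC bins by coding transcript and over protein-coding genes, and the removal of genes with a copy, were chosen after seeing the data. Sums were not recomputed with a pseudocount or within GC bins. The difference of the subunit medians, large minus small, lay between -0.08 and 0.11. Of 465 values of 29 named genes under an alternative, 50 moved beyond their counting interval, 49 of them with GC content. Within GC bins Mrpl14, Mrpl38, Mrpl54 and Mrps24, whose counting intervals lay below 1, turned from lower to higher. Mrpl12, Mrps7 and Mrps12, whose intervals span 1, did so as well. With exon length added to the bins Mrpl54 stayed below 0, at -0.03. Depth limits the 4 genes with fewer than 100 reads in a library. No paired analysis was possible because each genotype has 1 library and the labels carry no replicate numbers.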
